A study of Menidia menidia with 24 samples.

Results

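The 146 transcripts described here had a higher mean level, on a log2 scale, in Atlantic silverside (Menidia menidia) larvae reared under combined hypoxia and acidification (HypOA) than in control-reared larvae. This held for the group means whichever environment the parents had met, and the transcripts were drawn from 20210 genes. Members were chosen by their own measured levels. Counts were scaled to library size (CPM) with TMM factors and put on a log2 scale with a prior count of 2, and 16527 genes had a mean of at least 1 CPM over the 24 larvae. Of these, 14195 had a mean difference between parentages (the mean of HC minus CC and HH minus CH) smaller than 0.3 in either direction. They were ranked by the smaller of their 2 responses to rearing, CH minus CC and HH minus HC, and the highest 150 were taken. From these, 4 of 9 genes excluded by name dropped out: MYG (mme18570, smaller response 1.86), CX6B1 (mme16698, 1.24) and the LYOX transcripts mme08650 (0.88) and mme08651 (0.50). Any table of this kind has a highest 150, so a positive response under both parentages and a small parental difference are properties of the rule and not findings. Responses below are descriptions for that reason, and no p-value is given for a single member.

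Each of the 24 libraries came from the homogenate of 1 whole wild-type larva at 19 dpf, with 6 larvae in each of 4 groups. CC and CH larvae had parents kept under control conditions before spawning and HC and HH larvae had parents kept under HypOA, which the methods describe as a night-time exposure. CC and HC larvae were reared in control water (100% dissolved oxygen and 600 µatm pCO2 by the labels) and CH and HH larvae under HypOA (35% and 2500 µatm by the labels, levels that the methods give slightly differently), which by the methods started some hours after fertilization. Parents were wild-caught adults whose gametes were pooled within a parental treatment, so parental treatment and parental pool cannot be told apart, and rearing treatment likewise cannot be told apart from larval size or stage at sampling. The methods state that pairs of larvae shared a rearing container and the labels do not say which, so larvae were treated as independent and the errors given here measure only the spread between them. In whole-larva RNA, a change in the number of cells of a type and a change in RNA per cell cannot be told apart.

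Red blood cells carry oxygen on hemoglobin, whose heme is made from a first step run by 5-aminolevulinate synthase, and mitochondria spend oxygen in the respiratory chain, whose last enzyme is cytochrome c oxidase. At the same age the brain is still being wired: adhesion proteins bring nerve endings and target cells together, active-zone proteins hold synaptic vesicles ready, and receptors and channels turn released transmitter into current. The head skeleton is meanwhile laid down as cartilage, whose matrix carries its own marker proteins.

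Between 11688851 and 16120500 reads per larva were counted on genes. Reads that fell on no annotated feature made up 19.2% to 20.9% of reads in CC against 21.04% to 22.99% in CH, and 19.6% to 21.1% in HC against 20.6% to 21.97% in HH, so this share moved with rearing and its part in the members' levels was not tested. Listed markers of nerve, muscle, pancreas, liver, blood, skin and retina were all counted in these whole larvae wherever a symbol could be matched. Symbols existed only for transcripts that the study had called different between CH and CC. Differences between CC and CH in the sums below are therefore given by construction and are not independent evidence. Summed neuronal markers (6 of 13 symbols matched, 7 genes, 0 of them members) ranged from 445 to 689 CPM in CC against 737 to 905 in CH, and from 617 to 756 in HC against 723 to 941 in HH. The corresponding sums over skeletal muscle markers (11 of 14 symbols matched, 14 genes, 0 members) were 4993 to 7603 CPM in CC against 2172 to 4464 in CH, and 3072 to 6871 in HC against 2265 to 5483 in HH. Exocrine pancreas markers (11 of 12 symbols, 15 genes, 0 members) summed to 50.9 to 1621 CPM in CC against 32.3 to 64.3 in CH, and to 53.9 to 225 in HC against 39.5 to 52.4 in HH. Under HypOA parents the pancreas sums did not overlap. Retina markers (7 of 10 symbols, 7 genes, 0 members) summed to 42.8 to 64.7 CPM in CC against 74.7 to 91 in CH, without overlap, and to 59.7 to 80.96 in HC against 62.03 to 78.7 in HH. The part of these shifts in the members' levels was not tested either.

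Averaged over the 146 members, log2 CPM ranged from 2.05 to 2.35 in CC larvae and from 2.20 to 2.45 in HC larvae, against 2.83 to 3.02 in CH and 2.83 to 2.99 in HH. The 12 HypOA-reared larvae thus all lay above the 12 control-reared larvae on this mean, a separation that the choice of members builds in. Responses ran from 0.41 to 1.69 log2 units in CH minus CC, with a median of 0.61, and from 0.41 to 1.67 in HH minus HC, with a median of 0.50. The medians over all 16527 genes were -0.02 and 0.00042 on the same scale. Averaged over parentages, the median member stood 1.496-fold higher under HypOA rearing and the highest, mme07561, 3.13-fold. These folds come from differences in mean log2 CPM and are not ratios of mean CPM. CPM values are not corrected for transcript length and are not compared between genes. Means over all larvae ran from 1.10 CPM (mme05786) to 678 CPM (GATM), and 45.2% of members lay below 5 CPM, compared with 22.3% of all 16527 genes.

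**Figure D1:**
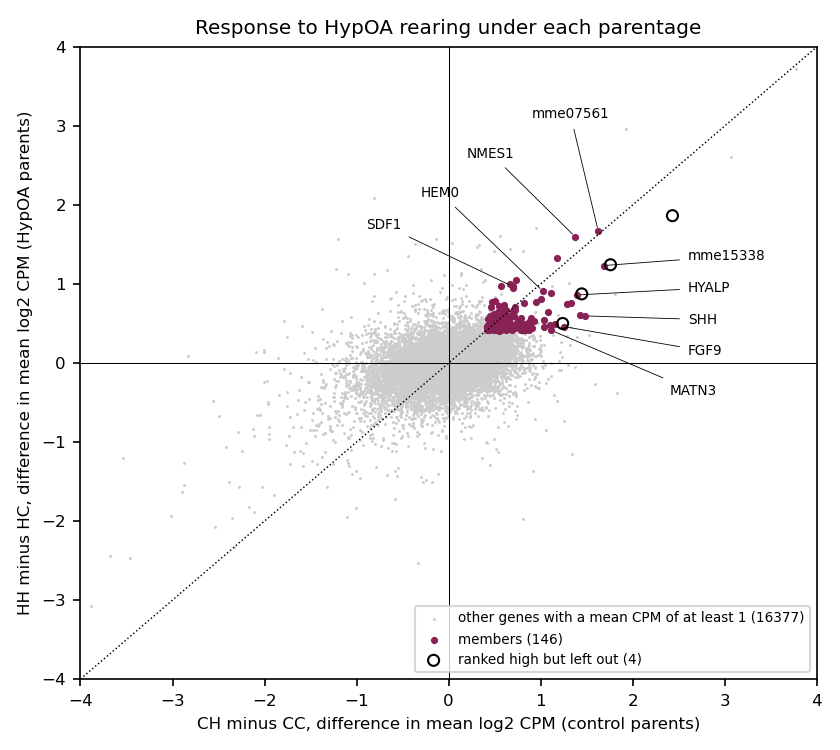
Difference in mean log2 CPM between HypOA-reared and control-reared larvae of control parents (x axis, CH minus CC) and of HypOA parents (y axis, HH minus HC), 6 larvae a group. Grey points are the other genes with a mean CPM of at least 1, dark points the 146 members and open circles the 4 genes left out by name; the dotted line marks equal responses, and 98 members lie to its right, with a larger value in CH minus CC.

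The boundary of the set fell within a crowd of like values. The smaller response of the last members inside (GRIK3, SX21B, TAL1, mme09427 and mme14225) ran from 0.411 to 0.413, and that of the first genes outside (mme04633, mme19568, CK095, mme08882 and mme11453) from 0.404 to 0.411. When the ranking was repeated with each larva left out in turn, 111 (without HC 3) to 133 (without CC 5) of the 146 members were chosen again. A core of 31 members was chosen in all 24 of these rankings, and 8 members in fewer than 12 of them, among them GCYA2 (11) and SYT2 (9). With a minimum mean of 5 CPM in place of 1, 80 members remained, and with group medians in place of means, 83.

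Fits across all 17262 genes that passed edgeR's filter, with Benjamini-Hochberg adjustment, used the same contrasts as the rule, so the counts of members are printed beside those of all genes and nothing is read from them. In CH versus CC, 54 members were called higher at an FDR of 0.05 (4.99% of all genes tested were called higher). The count lay between 36 when CC 1 was left out (490 of all genes) and 59 when CC 5 was (1026 of all genes). In HH versus HC, edgeR called 0 members (0.00579% of all genes), with 89 members higher at an unadjusted p below 0.05 (3.82% of all genes) and a smallest FDR among members of 0.0712. The 1 gene called higher there was CX6B1, which the rule had taken and which was then excluded by name. The 0 thus rests on that exclusion. Among members, DESeq2 called 7 in HH versus HC (NMES1, SDF1, LRFN4, ADCY2, CADM2, CMTA1 and ANK1), beside 22 of all genes, and limma-voom 0, beside 1 of all genes. Leaving out CH 2, CH 3 or HC 5 each gave 1 edgeR call among members, SDF1, where 3, 2 and 1 of all genes were called. Over both parentages together, 93 members were called higher under HypOA rearing (4.38% of all genes), of which 48 carry no symbol. The count lay between 77 without CC 1 (583 of all genes) and 96 without CC 5 (863 of all genes). Of the 53 not called, 38 had a mean below 5 CPM, as did 28 of the 93 called.

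The interaction of rearing and parentage asks whether the response differed with the parents' treatment. For it edgeR called 0 members (0% of all genes tested). At an unadjusted p below 0.05 it had 4 members (10.7% of all genes), all 4 with HH minus HC below CH minus CC (5.61% of all genes). In members, which the rule took as raised, this is a smaller response in offspring of HypOA parents. In genes lowered by HypOA rearing it is not, so the 5.61% is a share by sign only. DESeq2 and limma-voom also called 0 members, beside 4 and 0 of all genes. For parental treatment over both rearings edgeR called 0 members (0.649% of all genes), with 10 at an unadjusted p below 0.05 (17.4% of all genes). There limma-voom called 0 members, beside 97 of all genes. DESeq2 called 1 member, the transcription factor gene CMTA1, beside 478 of all genes. The counts for these 2 contrasts say little, because the rule capped the parental difference and ranked on the smaller response.

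Ranges of single larvae gave a further description. Every CH larva lay above every CC larva in 24 members (2.03% of all 16527 genes), and every HH larva above every HC larva in 11 (0.405%). Both held in 3 members (0.0968%), the adhesion genes CADM2 and IGDC3 and the transcription factor gene CMTA1. In 0 members did all 12 HypOA-reared larvae lie above all 12 control-reared ones (0.0303% of all genes). Single larvae stood in the way. SDF1 and ADCY2 separated fully without CH 3, IGDC3 without CH 2, SHH without HC 5, CADM2 without HC 6 and mme06336 without HH 2.

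**Figure D2:**
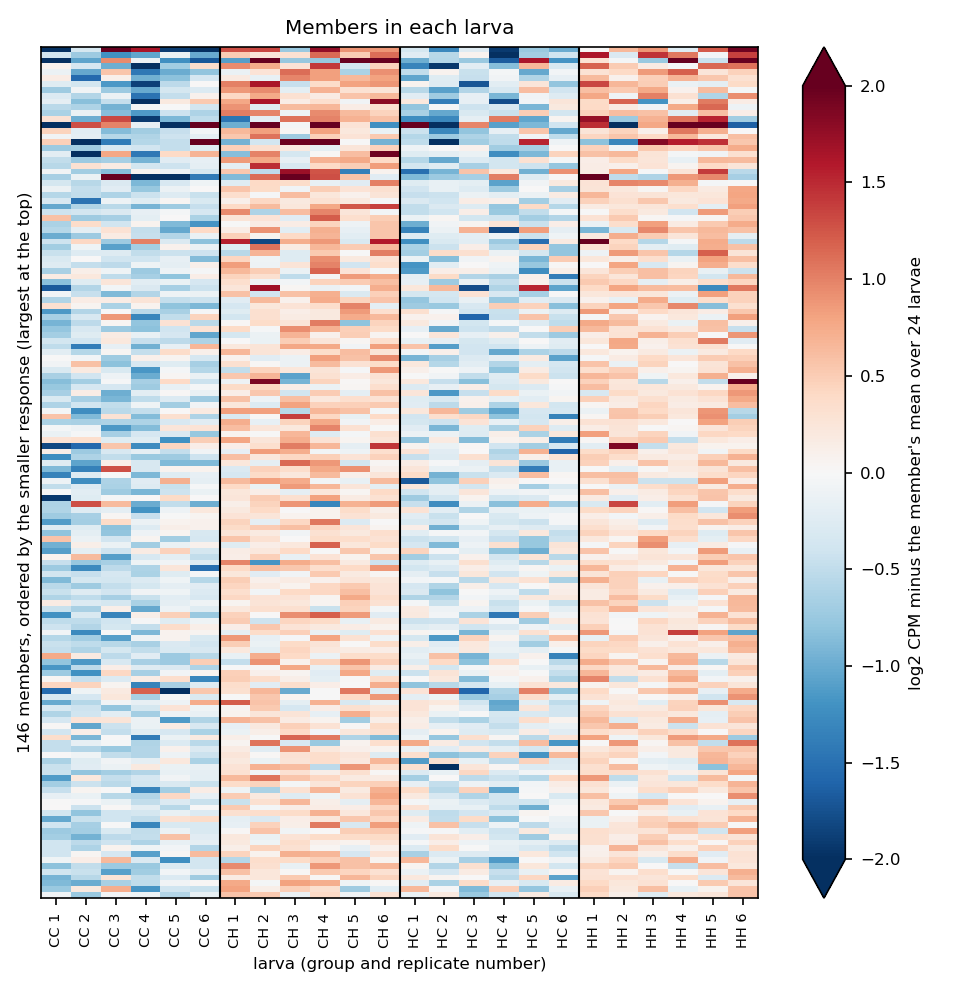
Level of each of the 146 members (rows, the largest smaller response at the top) in each of the 24 larvae (columns, grouped as CC, CH, HC and HH), as log2 CPM minus that member's mean over all larvae. Colours are limited to 2 log2 units either side of 0. The HypOA-reared columns are mostly red and the control-reared ones mostly blue, as the rule requires, and several of the strongest departures of single larvae lie near the top.

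Symbols could be given to 45 members. They were paired with gene ids through the readable rows of the study's own list of transcripts differing between CH and CC, so every named member had already passed a test in that comparison. Of the remaining members, 95 stood outside those rows and 6 were listed without a symbol, and all of these are given by id. The functions below therefore describe the named members only, and their responses in CH minus CC are not independent evidence. In the text that follows, 3 values in a row are the lowest, the median and the highest CPM of the 6 larvae of a group, and responses are differences in mean log2 CPM with an s.e.m. from the pooled within-group spread.

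Members with a known role in red cells or their formation were HEM0, HBAD, ANK1 and TAL1. The wider list of blood and leucocyte markers (13 genes, 3 of them members) went both ways, with 6 called higher and 3 lower over both parentages, and 8 above and 5 below 0 in HH versus HC. Its summed level overlapped between rearing groups, at 185 to 381 CPM in CC against 152 to 375 in CH, and 151 to 335 in HC against 199.5 to 304 in HH. HEM0 (mme07522), the erythroid 5-aminolevulinate synthase that starts heme synthesis, measured 11.8, 17.3 and 47.01 CPM in CC and 20.7, 47.7 and 69.8 CPM in CH. Under HypOA parents it measured 15.7, 27.3 and 33.7 CPM in HC and 38.1, 43.5 and 74.01 CPM in HH. Every HH larva lay above every HC larva, whereas CC and CH overlapped, with 3 of 6 CH larvae above the highest CC larva. Its responses were 1.03 in CH minus CC and 0.91 in HH minus HC (s.e.m. 0.33 for each).

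HBAD (mme16843), an alpha-type globin, measured 1.79, 2.56 and 4.26 CPM in CC against 2.94, 4.29 and 8.74 in CH, and 2.26, 3.65 and 4.67 in HC against 4.19, 5.01 and 6.14 in HH. Ranges overlapped under both parentages, with 3 of 6 CH larvae above the highest CC larva and 3 of 6 HH larvae above the highest HC larva. Its responses were 0.83 and 0.48 (s.e.m. 0.25). ANK1 (mme01423), an ankyrin that ties the membrane of red cells and other cells to the cytoskeleton, measured 45.6, 52.7 and 63.1 CPM in CC and 65.99, 77.6 and 89.5 CPM in CH, without overlap. The corresponding ranges under HypOA parents, 58.6 to 76.3 CPM in HC and 70.8 to 105 in HH, overlapped in 1 HH larva. TAL1 (mme13415), a transcription factor of blood formation that some neurons also use, had responses of 0.88 and 0.41 (s.e.m. 0.21), and 2 of 6 HH larvae lay above the highest HC larva. Between larvae of a group TAL1 varied with PCLO (r=0.86), a presynaptic gene, and had r=-0.04 with HEM0.

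A wider list of mitochondrial respiration and iron-sulfur proteins (15 genes, 2 of them members) went mostly the other way in HH versus HC, with 4 above and 11 below 0. Over both parentages 4 of its genes were called higher and 7 lower. Among members tied to mitochondria and energy supply, NMES1 (mme00067) had the largest smaller response of any named member. Its human counterpart is a small mitochondrial protein related to a subunit of cytochrome c oxidase. It measured 0.681, 0.906 and 1.602 CPM in CC against 2.13, 2.58 and 4.06 in CH, and 0.153, 1.23 and 1.86 in HC against 1.42, 4.34 and 5.73 in HH, so counts were low throughout. Every CH larva lay above every CC larva, 4 of 6 HH larvae lay above the highest HC larva, and HC 4 stood apart at the bottom of its group. Responses were 1.38 in CH minus CC and 1.59 in HH minus HC (s.e.m. 0.40 for each). RFESD (mme03563), a protein with a Rieske-type iron-sulfur domain, measured 1.400, 2.96 and 4.901 CPM in CC against 3.97, 7.43 and 8.81 in CH, and 2.08, 3.45 and 4.21 in HC against 4.69, 6.36 and 7.19 in HH. All HH larvae lay above all HC larvae, 5 of 6 CH larvae lay above the highest CC larva, and its responses were 1.11 and 0.88 (s.e.m. 0.26).

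GATM (mme00099), the enzyme of the first step of creatine synthesis and the member with the highest mean CPM, measured 429, 526 and 782 CPM in CC against 505, 862 and 1766 in CH, and 372, 483 and 533 in HC against 654, 724 and 830.3 in HH. HC and HH did not overlap, whereas CC and CH did. Its responses were 0.63 and 0.67 (s.e.m. 0.23). S2544 (mme00026), a mitochondrial carrier of branched-chain amino acids, ranged from 2.98 to 5.31 CPM in CC and 5.95 to 8.01 in CH, with no overlap, and from 3.58 to 6.92 in HC and 5.08 to 9.25 in HH, with overlap.

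**Figure D3:**
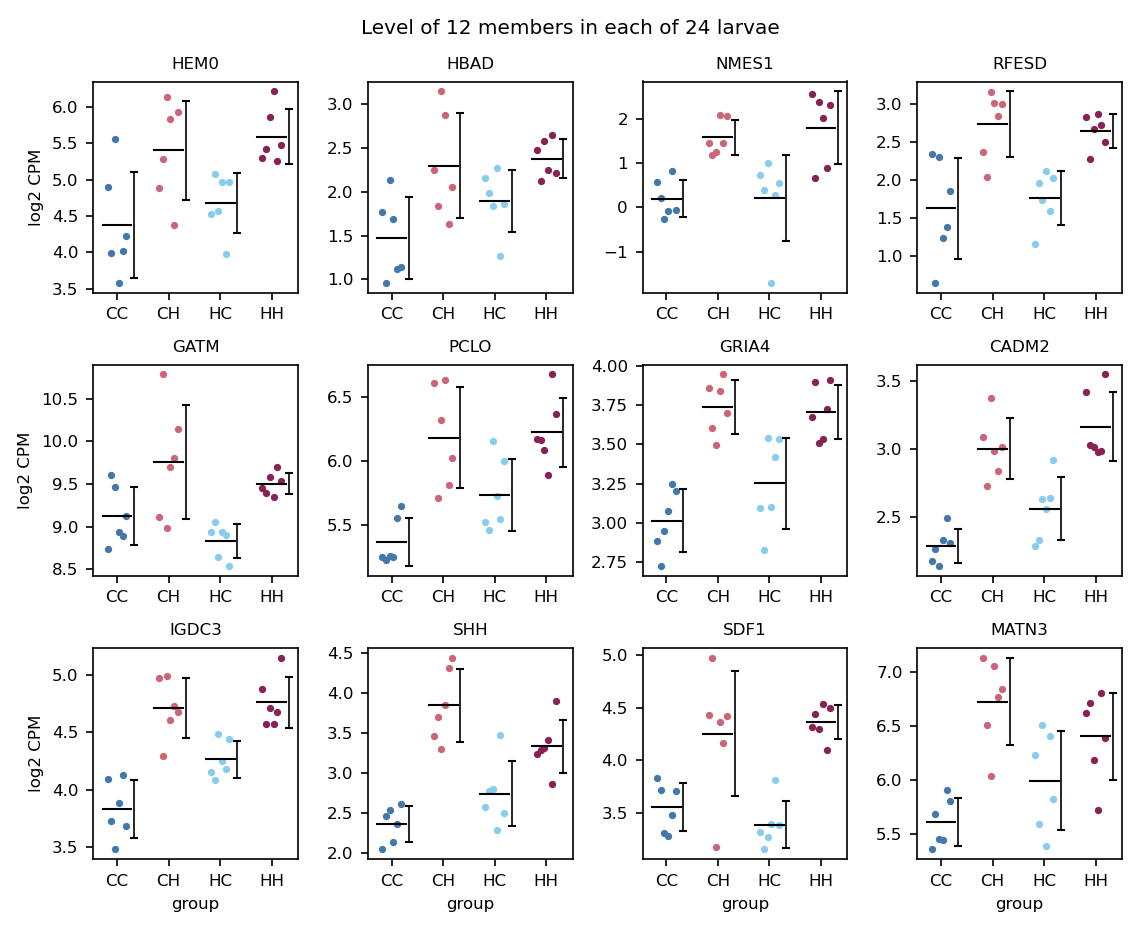
Level of 12 members in each larva (y axis, log2 CPM, scaled separately for each transcript) in the groups CC, CH, HC and HH, 6 larvae each. Points are larvae, horizontal lines group means and bars beside them the s.d.; CADM2 and IGDC3 separate the rearing groups under both parentages, whereas HEM0 and GATM do so only in offspring of HypOA parents, and SHH and MATN3 only in offspring of control parents.

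The presynaptic group was made up of BSN, PCLO, UN13B and SYT2. PCLO (mme02274), Piccolo, and BSN (mme07700), Bassoon, are large scaffolds of the active zone where vesicles fuse. PCLO measured 37.4, 38.1 and 50.1 CPM in CC against 52.2, 72.3 and 98.9 in CH, and 43.95, 49.8 and 71.04 in HC against 59.2, 71.7 and 102 in HH. It separated CH from CC completely and lay above the highest HC larva in 4 of 6 HH larvae, with responses of 0.82 and 0.49 (s.e.m. 0.17). Another gene with the symbol PCLO, mme17299, was not a member and varied with mme02274 between larvae of a group (r=0.84). BSN overlapped under both parentages, at 24.7 to 43.99 CPM in CC against 35.03 to 75.3 in CH, and 28.9 to 56.2 in HC against 42.3 to 80.9 in HH, and its responses were 0.65 and 0.54 (s.e.m. 0.22).

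UN13B (mme01006), which primes vesicles for release, measured 5.78, 6.55 and 7.48 CPM in CC and 7.58, 10.2 and 12.04 CPM in CH, without overlap. With HypOA parents it measured 4.47, 6.91 and 8.64 CPM in HC and 6.59, 8.95 and 11.1 CPM in HH, where 1 HH larva fell inside the HC range. The calcium sensor SYT2 (mme02951) ranged from 16.8 to 26.4 CPM in CC against 28.1 to 36.6 in CH, and 24.1 to 38.8 in HC against 31.5 to 50.6 in HH, and only 1 of 6 HH larvae exceeded the highest HC larva, HC 3.

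Receptors, channels and messengers contributed 7 members, with means of 4.67 to 17.1 CPM over all larvae. GRIA4 (mme10372), an AMPA-type glutamate receptor subunit, measured 6.46, 7.92 and 9.36 CPM in CC and 11.1, 13.5 and 15.3 CPM in CH, without overlap, and 6.95 to 11.5 CPM in HC against 11.2 to 14.9 in HH, with overlap in 2 HH larvae. The kainate-type subunit GRIK3 (mme06179) had ranges of 5.54 to 11.4, 12.1 to 17.9, 8.57 to 13.3 and 11.8 to 19.5 CPM in CC, CH, HC and HH. Responses were 0.73 and 0.46 (s.e.m. 0.12) for GRIA4 and 0.83 and 0.41 (s.e.m. 0.16) for GRIK3. GCYA2 (mme04870), a subunit of the soluble guanylate cyclase that answers nitric oxide, measured 4.67, 7.07 and 8.45 CPM in CC against 13.03, 15.3 and 17.1 in CH, and 7.81, 10.7 and 14.1 in HC against 12.5, 15.1 and 18.3 in HH. CH stood clear of CC, while HC overlapped with CC and with HH, and its responses were 1.10 and 0.48 (s.e.m. 0.15).

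ADCY2 (mme06674), an adenylate cyclase that makes cyclic AMP, had a slightly larger value under HypOA parents. It measured 2.599, 3.98 and 4.54 CPM in CC against 4.29, 5.79 and 6.67 in CH, and 2.68, 3.56 and 4.51 in HC against 4.61, 5.33 and 7.77 in HH. All HH larvae lay above all HC larvae, and 5 of 6 CH larvae lay above the highest CC larva. Its responses were 0.61 and 0.67 (s.e.m. 0.15). The sodium channel subunit SCN2B (mme04934) separated CH (17.03 to 27.9 CPM) from CC (10.3 to 14.2) but not HH (14.8 to 26.03) from HC (10.7 to 18.9). FGF14 (mme08442), an intracellular modulator of sodium channels, and NSMF (mme11292), a messenger between synapse and nucleus, had responses of 0.59 and 0.50 (s.e.m. 0.14) and 0.70 and 0.45 (s.e.m. 0.14).

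Adhesion proteins of neurons and their targets gave 6 members. CADM2 (mme04542), a synaptic cell adhesion molecule of the immunoglobulin family, measured 4.26, 4.74 and 5.48 CPM in CC against 6.47, 7.84 and 10.2 in CH, and 4.73, 5.89 and 7.42 in HC against 7.72, 7.98 and 11.6 in HH. Neither parentage showed overlap between rearing groups, and its smaller response was 4.88 times its s.e.m., the largest such ratio among members. IGDC3 (mme00238), related to the guidance receptor DCC, measured 10.99, 13.8 and 17.3 CPM in CC against 19.5, 25.9 and 31.6 in CH, and 16.8, 18.4 and 22.2 in HC against 23.6, 25.7 and 35.4 in HH, again without overlap under either parentage. The responses were 0.72 and 0.60 (s.e.m. 0.12) for CADM2 and 0.88 and 0.50 (s.e.m. 0.13) for IGDC3.

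LRC4C (mme02380), a netrin-G ligand, measured 0.473, 1.19 and 1.69 CPM in CC and 1.802, 2.303 and 2.77 CPM in CH, without overlap, and 0.765, 1.32 and 1.505 CPM in HC and 0.989, 2.41 and 3.34 CPM in HH, with overlap. SLIK1 (mme01626), a SLITRK protein that induces synapses, had responses of 0.82 and 0.76 (s.e.m. 0.25) and LRFN4 (mme17765), a synaptic leucine-rich repeat protein, of 0.72 and 0.67 (s.e.m. 0.16). LRFN4 measured 3.501 to 4.98 CPM in CC and 5.14 to 8.26 in CH, with no overlap, and 3.597 to 6.28 in HC and 5.67 to 10.01 in HH, with 1 HH larva inside the HC range. CAD10 (mme12208), a cadherin of the nervous system, had responses of 0.60 and 0.43 (s.e.m. 0.15).

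Regulators of transcription included CMTA1 (mme03501), a calmodulin-binding transcription activator, which measured 33.1, 37.8 and 40.6 CPM in CC against 43.9, 57.1 and 67.7 in CH, and 43.3, 45.6 and 57.6 in HC against 58.6, 63.6 and 78.9 in HH. It had the smallest within-group s.d. of all members, 0.16 log2 units, and no overlap between rearing groups under either parentage, with responses of 0.58 and 0.45 (s.e.m. 0.09). FOXB1 (mme02182), SOX14 (mme08768) and SX21B (mme08248) are transcription factors of the developing brain and spinal cord. Their responses were 0.76 and 0.53 (s.e.m. 0.20), 0.68 and 0.44 (s.e.m. 0.19) and 0.79 and 0.41 (s.e.m. 0.23). All 3 overlapped between rearing groups under both parentages, and in SX21B only 1 of 6 HH larvae lay above the highest HC larva. BMAL2 (mme17059), a partner of CLOCK in the circadian oscillator, measured 18.6, 28.3 and 39.2 CPM in CC against 31.1, 43.6 and 50.3 in CH, and 20.03, 27.1 and 35.1 in HC against 29.4, 43.1 and 47.7 in HH, and 8 of the 12 HypOA-reared larvae lay above all control-reared ones. The chromatin-associated RAI1 (mme15126) had responses of 0.64 and 0.43 (s.e.m. 0.16).

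Secreted signals were few and differed in their proportions. SHH (mme12172), the Sonic hedgehog morphogen of the floor plate and other signalling centres, measured 3.97, 5.17 and 5.96 CPM in CC and 9.66, 13.5 and 21.5 CPM in CH, without overlap, and 4.75, 6.26 and 10.9 CPM in HC and 7.13, 9.69 and 14.7 CPM in HH, where HC 5 lay within the HH range. Its responses of 1.48 and 0.60 (s.e.m. 0.21) were the most unequal of any member towards CH minus CC. FGF9 (mme14085), a fibroblast growth factor, measured 0.445, 0.9101 and 1.85 CPM in CC against 1.98, 2.19 and 2.92 in CH, and 1.16, 1.39 and 1.71 in HC against 1.603, 1.83 and 2.596 in HH. FGF9 had the largest HC minus CC of all members, 0.61 log2 units, and responses of 1.25 and 0.46 (s.e.m. 0.21).

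SDF1 (mme14065), a chemokine that guides migrating germ cells, neurons and lateral line cells in fish, had the larger value under HypOA parents, unlike SHH and FGF9. It measured 9.61, 11.97 and 14.1 CPM in CC against 8.89, 20.8 and 31.2 in CH, and 8.77, 10.1 and 13.9 in HC against 16.9, 20.7 and 23.03 in HH. HH and HC did not overlap, and 5 of 6 CH larvae lay above the highest CC larva. The exception, CH 3, had the lowest value of its group and the highest share of reads on no feature of all 24 larvae, 22.99%. It also had the highest share of reads placed at several sites, 7.88%. Averaged over all members, CH 3 stood at 2.85 log2 CPM, within the range of the other CH larvae. The part of these shares in its SDF1 value was not tested. Responses were 0.70 in CH minus CC and 0.97 in HH minus HC (s.e.m. 0.20 for each).

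Matrix, cartilage and mucus proteins gave 7 members. MATN3 (mme15717), a matrilin of cartilage, measured 40.9, 47.6 and 59.8 CPM in CC against 65.5, 112 and 140.4 in CH, and 41.7, 65.8 and 90.8 in HC against 52.8, 91.2 and 112 in HH. CH cleared CC entirely, whereas HH and HC overlapped in 3 of 6 HH larvae, and the responses were 1.12 and 0.41 (s.e.m. 0.22). UCMA (mme02002), a secreted protein of cartilage growth zones, measured 5.62, 9.21 and 12.8 CPM in CC against 10.1, 18.02 and 25.6 in CH, and 6.98, 8.49 and 16.5 in HC against 10.1, 15.6 and 20.1 in HH, with overlap under both parentages. ECM2 (mme07367), an extracellular matrix protein, measured 22.7, 28.9 and 38.8 CPM in CC against 38.5, 71.6 and 78.2 in CH, and 21.3, 34.7 and 53.6 in HC against 39.1, 53.95 and 67.95 in HH. Its responses were 1.08 and 0.65 (s.e.m. 0.21) and those of UCMA 0.90 and 0.57 (s.e.m. 0.26).

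HYALP (mme17368), a hyaluronidase, which cuts the matrix sugar hyaluronan, measured 1.02, 3.03 and 4.18 CPM in CC against 2.99, 7.61 and 13.2 in CH, and 1.16, 3.54 and 4.97 in HC against 3.602, 5.702 and 10.8 in HH, and its responses were 1.40 and 0.86 (s.e.m. 0.39). Of the HypOA-reared larvae, 9 of 12 lay above all control-reared ones. MUC2 (mme02101), the gel-forming mucin of gut mucus, had responses of 0.79 and 0.57 (s.e.m. 0.18), the laminin chain LAMA1 (mme12331) of 0.60 and 0.47 (s.e.m. 0.16) and the corneal proteoglycan KERA (mme17283) of 0.46 and 0.46 (s.e.m. 0.14). KERA had a mean of 102 CPM over all larvae. Other named members without an assigned role here were KANK4, GCC2, NCKP5 and REN3A, of which NCKP5 had responses of 0.78 and 0.42 (s.e.m. 0.12) and separated CH from CC without overlap.

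Of the 20 members with the largest smaller response, 9 carry a symbol and 15 were called under HypOA rearing over both parentages, the exceptions being mme07561, mme09151, mme20037, mme19179 and mme00867. mme07561 ranked highest, with responses of 1.63 and 1.67 (s.e.m. 0.74), yet it measured 0.445, 2.299 and 18.5 CPM in CC against 2.61, 9.85 and 15.6 in CH, and 1.07, 2.41 and 3.72 in HC against 3.73, 7.75 and 17.8 in HH. CC spanned the whole range of the HypOA-reared larvae and 0 of 12 of these lay above the highest control larva, while HH and HC did not overlap. In the edgeR fits its CH versus CC log2 fold change lay between 0.35 (without CC 1) and 1.29 over the fits without 1 larva. This is another measure than a difference in mean log2 CPM, so the 2 are not set against each other. mme15338 measured 0.292, 0.726 and 3.58 CPM in CC against 0.751, 5.03 and 11.97 in CH, and 0.459, 0.919 and 5.87 in HC against 1.002, 1.97 and 12.9 in HH, and its responses were 1.69 and 1.23 (s.e.m. 0.82). Its ranges overlapped under both parentages, with 3 of 6 CH larvae above the highest CC larva and 2 of 6 HH larvae above the highest HC larva.

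mme20037 had the largest within-group s.d. of all members, 2.19 log2 units, and the only larva with a count of 0, an HH larva. It measured 0.169, 4.28 and 12.4 CPM in CC against 1.17, 3.21 and 13.4 in CH, and 0.166, 1.84 and 17.5 in HC against 0, 6.78 and 25.4 in HH, its smaller response was 0.56 times its s.e.m., and without CH 4 the edgeR log2 fold change of CH versus CC was -0.16. mme19179 stood at -0.20 on this scale without CH 4. Leaving out CH 5 or HC 3 brought mme18642 to or below 0 in CH versus CC or HH versus HC. The other 143 members stayed above 0 in both comparisons in every fit without 1 larva.

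Among the many transcripts without a symbol that varied less between larvae than mme07561 and mme15338 were mme02683, mme08399 and mme08401. mme02683 measured 1.65, 4.91 and 9.07 CPM in CC against 5.45, 10.8 and 18.9 in CH, and 1.74, 4.75 and 11.2 in HC against 6.92, 12.6 and 16.1 in HH, with responses of 1.18 and 1.33 (s.e.m. 0.43). Its rearing groups overlapped under both parentages. mme01214 and mme09660 had responses of 1.33 and 0.76 (s.e.m. 0.53) and 0.70 and 0.96 (s.e.m. 0.29). mme08399 and mme08401 had responses of 1.00 and 0.81 (s.e.m. 0.25) and 1.28 and 0.74 (s.e.m. 0.24). Their means over all larvae were 31.2 and 29.3 CPM, and they varied together between larvae of a group (r=0.94). Whether they share sequence, and so share reads, could not be told from the files, and their counts are uncertain to that extent. mme09151, at 23.8, 55.95 and 227 CPM in CC against 32.9, 142 and 192 in CH, and 36.8, 61.9 and 187 in HC against 54.7, 169 and 304 in HH, overlapped between rearing groups under both parentages, and 2 of 12 HypOA-reared larvae exceeded the highest control larva.

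**Figure D4:**
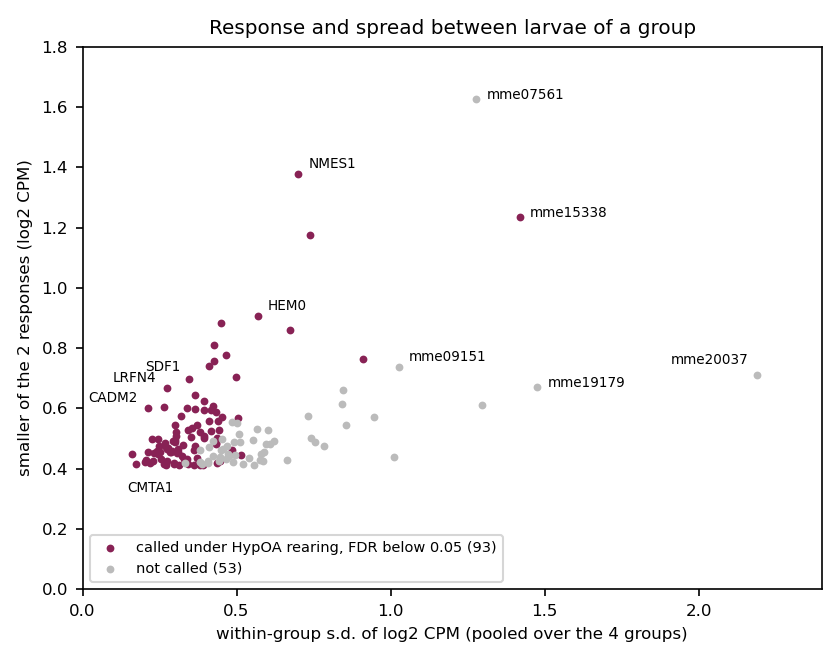
Smaller of the 2 responses (y axis, log2 CPM) against the pooled within-group s.d. (x axis, log2 CPM, 24 larvae in 4 groups) for the 146 members. Dark points are the 93 members called under HypOA rearing over both parentages and grey points the 53 not called. Among those far to the right are mme20037, mme19179, mme15338 and mme07561, and CMTA1, CADM2 and LRFN4 lie at the left.

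Offspring of control parents gave the larger value in 98 members and offspring of HypOA parents in 48. The median of HH minus HC less CH minus CC was -0.07 log2 units, from -0.89 in SHH to 0.41 in mme08590. HC lay above CC in 102 members, by a median of 0.14 log2 units over the set (all genes, -0.01), and HH above CH in 75, by a median of 0.01. HEM0, HBAD, ANK1 and TAL1, all 4 presynaptic genes and all 6 adhesion genes had the larger value in CH minus CC, as did 6 of 7 receptors, channels and messengers. NMES1, GATM, SDF1, ADCY2 and BMAL2 had the larger value in HH minus HC, and KERA had the same value in both to the digits given above. These contrasts share their groups with the rule. Every named member had also passed the study's test of CH versus CC, which favours a larger value there, so nothing is read from these counts by function. No member passed the test of the difference, as given above.

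The median within-group s.d. of members was 0.42 log2 units in CC and 0.39 in CH, and 0.40 in HC and 0.32 in HH, against 0.32, 0.31, 0.27 and 0.25 over all 16527 genes, whose median level was 14.3 CPM compared with 5.75 CPM for members. HH had the smaller s.d. of the HypOA-reared groups in 88 of 146 members (60.3%, all genes 66.0%). HC had the smaller s.d. of the control-reared groups in 78 (53.4%, all genes 62.1%).

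Within groups the members did not form a single block. Over all pairs of members, the median Pearson r of deviations from the group mean was 0.04 over 24 larvae, compared with -0.002 over all 16527 genes, and r reached 0.7 in 0.416% of member pairs and 0.448% of all pairs. Pairs this close were thus no more frequent among members than among all genes, and the smaller blocks below are given only as descriptions. PCLO varied with BSN (r=0.86) and with TAL1 (r=0.86), and average-linkage clustering placed these 3 with SLIK1 and 5 transcripts without a symbol at a median r of 0.68. CADM2, IGDC3, CMTA1, RAI1 and SYT2 formed another block, also at a median r of 0.68. The share of reads on no feature varied along with CMTA1 (r=0.73), TAL1 (r=0.57), PCLO (r=0.37) and BSN (r=0.36). It also varied with the mean of all 146 members (r=0.46), which had r=-0.46 with the log of counted reads, and the part of either measure in this co-variation was not tested.

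SHH sat with mme15338, SX21B, REN3A and 3 further transcripts at a median r of 0.67, and ECM2 with mme08399, mme08401, mme02683 and mme03803 at 0.69. MATN3 varied with ECM2 (r=0.63) and with mme08401 (r=0.67). HEM0 varied with the globin HBAD (r=0.64), with RFESD (r=0.64) and with mme15340 (r=0.72), and with TAL1 at r=-0.04, and ran against MATN3 (r=-0.55). GATM ran against PCLO (r=-0.51) and CMTA1 (r=-0.62). The closest member to NMES1 was mme08032 (r=0.56). Closer partners lay outside the set, mme11940 for NMES1 (r=0.72), mme03061 for PCLO (r=0.89) and mme11926 for HEM0 (r=0.89). That search took the best of 16527 genes against the best of 146 members. A closer partner outside is likely from these numbers alone, and nothing is read from it. The highest mean r with all other members was 0.14, in mme05074, and the lowest -0.12, in mme01188.

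**Figure D5:**
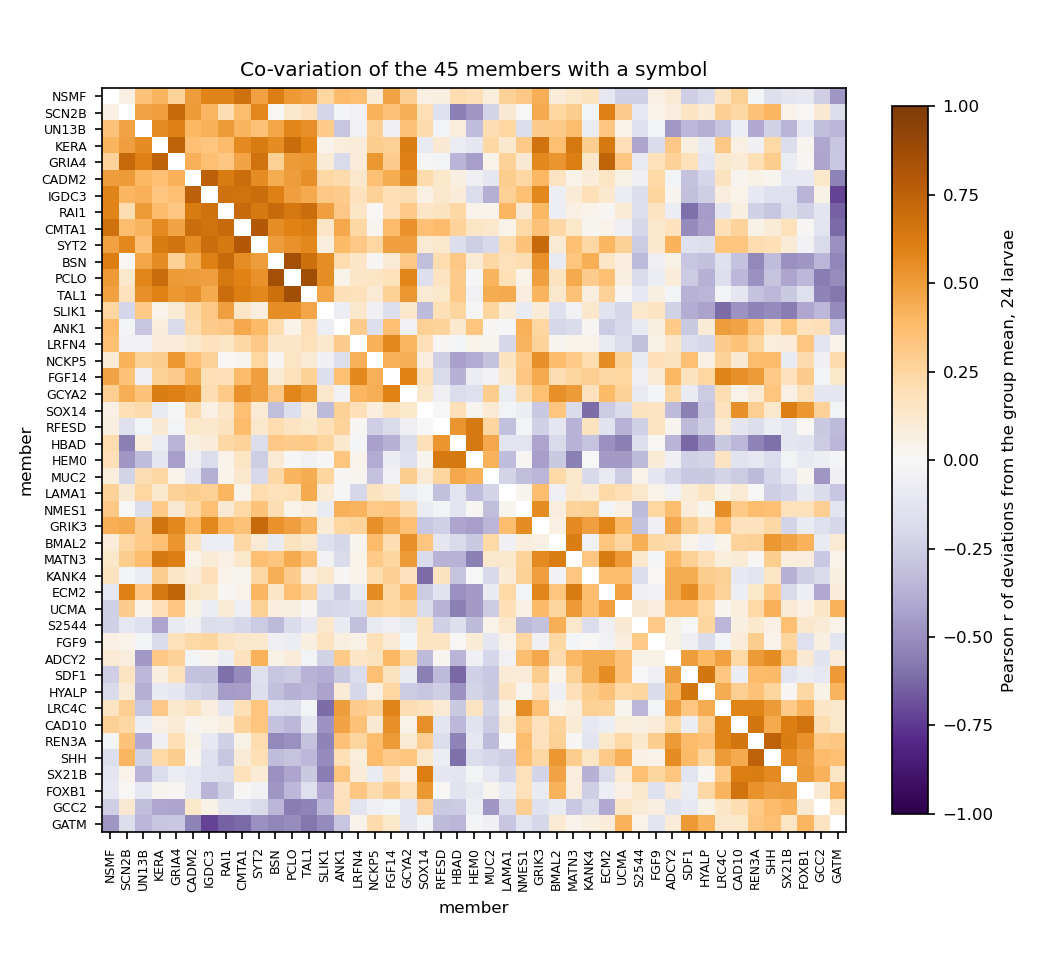
Pearson r between the 45 members with a symbol (both axes, ordered by average-linkage clustering), computed over 24 larvae from deviations of log2 CPM from the mean of each larva's own group. Orange marks positive and purple negative values; a block from NSMF to TAL1 holds synaptic, adhesion and transcription factor genes, and HEM0, HBAD and RFESD form a small block of their own.

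Other genes of the same pathways were taken from lists by symbol. Members without a symbol could not be placed in any list, so how much of each pathway entered the set cannot be told. Symbols again existed only for transcripts that the study had called in CH versus CC. Calls there are thus given by construction, and calls over both parentages partly so. Over both parentages 4.38% of all genes tested were called higher, a share not limited to genes with a symbol. Values in HH versus HC are set beside those of all genes tested (median -0.0018, 49.7% above 0). They are also set beside those of the 664 genes with a symbol that stood higher in CH versus CC (median 0.18, 87.05% above 0). Members were chosen for a high HH minus HC, so the values of any list that holds members are partly built in there too. Of 36 genes of synaptic vesicle release, 4 were members, edgeR called 31 higher under HypOA rearing over both parentages, and 32 lay above 0 in HH versus HC with a median log2 fold change of 0.19. Of 31 receptors and transporters of glutamate, GABA, glycine and acetylcholine, 2 were members, 23 were called higher over both parentages, and 26 lay above 0 with a median of 0.23. Among 28 synaptic adhesion and scaffold genes, 3 were members, 25 were called higher, and 27 lay above 0 with a median of 0.25. Of 45 neural transcription factors, 3 were members, 35 were called higher and 42 lay above 0, with a median of 0.16.

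The oxygen binding and heme list had 9 genes, of which 3 were members, and all 9 were called higher over both parentages and lay above 0 in HH versus HC, with a median of 0.91. Its other genes include globins and myoglobin that the rule excluded by name. Cartilage, bone and extracellular matrix genes went mostly the other way. Of 25 such genes, 5 were members, yet 15 were called lower under HypOA rearing over both parentages (3.36% of all genes were) and 7 higher. In HH versus HC 17 lay below 0, with a median of -0.22. In CH versus CC, the comparison that gave the symbols, 17 of the 25 stood lower and 8 higher. Values over all genes with a symbol that stood lower there are not given here for comparison. The matrix members listed above thus stand against the direction of most of their list. Of 15 genes of mitochondrial respiration and iron-sulfur proteins, 2 were members, and 4 were called higher and 7 lower over both parentages. In CH versus CC, 8 stood higher and 7 lower. In HH versus HC, 4 lay above 0, among them the 2 members by the rule, and 11 below, with a median of -0.10. The 2 members thus stand against the direction of most of this list in HH versus HC. Of 11 glycolysis and carbohydrate genes and 6 HIF pathway genes and targets with a symbol, 0 were members, although the latter list includes the LYOX transcripts excluded by name.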

How the data were processed

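RNA from 24 whole larvae was sequenced. Per the labels and the paper, the authors trimmed paired-end reads (the processing notes name Trimmomatic, the paper Fastp), aligned them to a M. menidia reference genome with STAR 2.6.1d and counted reads per transcript with HTSeq 0.11.1, and they deposited these raw counts. The library kit keeps strand. The assembly's name and the strand and overlap options of counting: not given in the sources used here. Overlapping or near-identical genes therefore carry uncertain counts.

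Entries of a gene were summed (20651 entries, 20210 genes). Reads on no feature (a mean of 20.8%) or placed at several sites (5.32%), and the other unassigned classes, entered no library size or test. The rule for members used TMM factors from all genes. Tests used 1 edgeR quasi-likelihood fit of all larvae with a coefficient per group (R 4.3.3, edgeR 4.0.16, legacy form) after filterByExpr (minimum count 10, minimum total 15), which kept 17262 genes, with Benjamini-Hochberg adjustment at 0.05. The s.e.m. of a response is the standard error of the difference between the means of 6 larvae and 6, computed from the pooled within-group s.d. The chi-square per degree of freedom between any pair of larvae of 1 group was 13.1 or more, so no library was a copy of another in its group. Pairs from different groups are not covered by this value.

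Named transcripts were the 20 with the largest smaller response, members with a symbol in a fixed list, those at the edge of the set and those at the ends of level, spread and co-variation. The members and lists were chosen with earlier results of these data known. Symbols came from 1299 readable rows of the study's dataset, and the reference table at hand could not be paired with the ids. Alternatives were DESeq2 1.42.0, limma-voom (limma 3.58.1), RLE factors, no filter, a replicate block, other priors, CPM minimums and medians, and leaving out each larva. The code was tested on simulated data.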

Additional observations from a re-analysis of the deposited data

Results flagged for a closer look

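In 52 named transcripts and 3 measures per library, 220 groups of 6 larvae were examined for a larva lying apart from the other 5, by the gap to its neighbour as a share of the group's range, and 8 passed Dixon's limit. Chance flags about 1 in 20 groups. The transcripts, on the log2 CPM scale, were mme07561 in CH, where CH 3 was low at 1.46 (nearest larva 3.1), NMES1 in HC, where HC 4 was low at -1.71 (nearest 0.27), and mme15338 in HC, where HC 5 was high at 2.59 (nearest 0.39). SDF1 in HC had HC 5 high at 3.81 (nearest 3.40). SYT2 had HC 3 high at 5.28 (nearest 4.83) in HC and HH 6 high at 5.67 (nearest 5.23) in HH. Among the library measures, CC 1 had 16120500 counted reads, more than the other CC larvae, and CH 3 had 22.99% of reads on no feature, against 21.4% in the next CH larva. CH 3 also stood apart on shares not among the 3 measures examined. It had 7.88% of reads placed at several sites, against 5.77% or less in all other larvae. Its counted share was 68.6%, against 72.3% or more in the others. The part of this in the departures of CH 3 was not tested.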

How the results depend on the processing

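The counts of members called in CH versus CC and under HypOA rearing over both parentages stayed within 1.5 times their value under DESeq2, limma-voom, RLE factors, no filter and the replicate block. In HH versus HC the 0 calls of edgeR became 7 with DESeq2 (22 of all genes), and 0 to 1 without 1 larva. For parental treatment the 0 calls became 1 with DESeq2 (478 of all genes) and for the interaction they stayed at 0 under every alternative. Without 1 larva, the counts ranged from 36 to 59 in CH versus CC and from 77 to 96 over both parentages. Calls over all genes without CC 1 and without CC 5 are given above. In the same way, 0 to 2 members separated all HypOA-reared from all control-reared larvae. Of the 146 members, a minimum of 5 CPM kept 80, group medians 83, no minimum 104 and each set of 23 larvae 111 to 133. The median within-group s.d. moved between 0.40 and 0.42 and the median correlation between 0.036 and 0.046 without 1 larva. Whether the order of replicate numbers follows rearing containers is not given in the labels. The methods state that pairs of larvae of a group shared a container. The replicate block used each number once per group, so it cannot account for shared containers. Across groups, same-numbered larvae deviated together with a mean correlation of -0.07 to 0.11 over the 6 pairs of groups. With this block 47 members were called in CH versus CC (743 of all genes), 0 in HH versus HC (1 of all genes) and 83 over both parentages (679 of all genes). It called 0 members for the interaction (0 of all genes) and 0 for parental treatment (39 of all genes). Of the members, 24 lay below 2 CPM on average, and the part of sequencing depth in their values was not tested.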
